A study of Mus musculus with 4 samples.

Results

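The mouse genes named Zfp followed by a number were followed across neural progenitor cells and a pool of tissues. Probes with such a name, other than those of Zfp36 and Zfp42, were taken where the scanner software marked the spot as well above background on at least 1 of 4 arrays, and for each gene the probe with the highest mean signal was kept. The array carried 238 such genes on 459 probes, and 222 of them met the rule, of 20025 genes that met it in all. The other 16 were not well above background on any array. The members were thus chosen by their spot signals, so the brightness of the genes is a description and not a result.

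The study set neural progenitor cell (NPC) lines against a tissue pool to find transcription factors with higher expression in the lines. NPCs are dividing cells that can form neurons and glia. Mixture, on 1 array, was pooled by equal mass of RNA from Swiss Webster tissues, namely liver, lung, heart, spleen, thymus, kidney and the day 11 embryo. The 3 NPC lines were NS21 (strain 129/Ola, from embryonic stem cell line 21), NS195R (129/Sv, from line 195R) and NSEB5-2C (129/Ola, from line EB5), each on 1 array and with no treatment named. Each line is a single line, and the p-values rest on the spread between these arrays, in which line and technical differences are joined. Mixture and the lines differ in strain as well as in cells, and these cannot be told apart. Among the lines only NS195R is 129/Sv, so where it differs from the others, line and strain cannot be told apart. Adult brain was not among the pooled tissues. In RNA from whole samples, fewer cells of a type and less RNA per cell cannot be told apart.

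Most of these genes encode proteins with tandem C2H2 zinc fingers, small loops that each hold a zinc ion and together read a stretch of DNA. Many also carry a KRAB box, which recruits the corepressor Trim28 (KAP1) and, through it, the histone methyltransferase Setdb1 and HP1 proteins, and so silences nearby DNA, transposable elements in particular. KRAB zinc finger genes lie in clusters that grew by repeated duplication. Other genes of the same name family steer neural development, hold stem cells in an undifferentiated state, or act on RNA, ribosomes and the mitotic spindle. The name Zfp covers unlike proteins. Of the 222 genes, 221 were found in the gene table of RefSeq, 33 under another symbol, and 27 are no longer named Zfp, such as Zfp238 (now Zbtb18), Zfp206 (Zscan10), Zfp99 (Zkscan14) and Zfp179 (Rnf112, a RING finger protein).

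One label of Mixture names a doxycycline-treated NPC line, against its title, its cell type and its strain. On that array all 39 measured markers of the pooled tissues were well above background, against 8 to 10 in the NPC lines. Of the 12 neural progenitor markers 9, 12 and 10 were well above background in NS21, NS195R and NSEB5-2C, and 10 in Mixture. Sox2 was not well above background in NS21, and Fabp7 was so only in NS195R among the lines. Non-control spots well above background numbered between 23983 and 26840 per array, 0 were saturated, and repeated probes varied by an SD of 0.0656 to 0.0771 (log2) within an array.

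Levels are given as the log2 of the background-subtracted spot signal minus the percentile 75 of the array, so that a level can be compared between samples for 1 gene but not between genes. Where 3 values are given for the lines without their names, the order is NS21, NS195R, NSEB5-2C. Mixture had 202 of the 222 well above background, NS21 had 215, NS195R had 214 and NSEB5-2C had 210, and 195 (87.8%) were so on all 4 arrays, against 63.9% of all genes tested. Another 10 were well above background in every line and not in Mixture (4.5%, against 3.1% of all genes tested). Only 2 were so in Mixture and in no line (0.901%, against 10.3%). At the threshold, the members of lowest mean level were Zfp711 (-6.46), Zfp709 (-6.31) and Zfp474 (-6.26), and the brightest genes left out were Zfp597 (-5.55), Zfp406 (-5.72) and Zfp558 (-6.24).

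**Figure D1:**
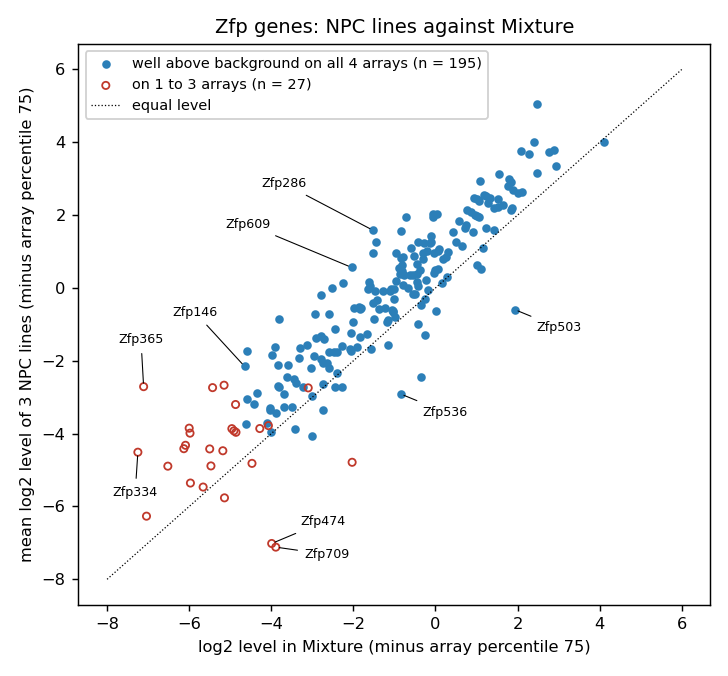
Each point is 1 of the 222 Zfp genes, with its log2 level in Mixture on the x axis and the mean log2 level of the 3 NPC lines on the y axis, both relative to the percentile 75 of the array. Filled points were well above background on all 4 arrays (195 genes) and open points on 1 to 3 arrays (27 genes), most points lie above the dotted line of equal level, and 9 genes named in the text carry a label.

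The Zfp genes lay mostly a little above Mixture in the NPC lines and seldom far below it. Their median log2 ratio of the lines to Mixture was 0.96, against 0.44 for all genes tested. By line the median was 1.06 for NS21, 0.76 for NSEB5-2C and 0.98 for NS195R, against 0.40, 0.23 and 0.43 in that order for all genes. Because the array scale moves every gene, the ratio is best read beside that of other genes of like detection. When only genes measured on all arrays were kept, the median was 0.97 for 195 Zfp genes and 0.71 for 12803 genes in all. Of the 195, 120 (61.5%) lay above 0.71. The gap between these medians was 0.26, and it was 0.17 after another background correction (normexp) and 0.39 with quantile normalization.

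The spread of the ratios differed as well. The middle 50% of the Zfp genes lay between 0.44 and 1.44, and those of all genes between -1.37 and 1.28. For genes measured on all arrays the widths of these ranges were 0.95 and 1.51. The low end differed most, with percentile 5 at -0.44 for the Zfp genes and -2.46 for all genes, while percentile 95 lay at 2.49 and 2.32. These are descriptions of 1 list, and neither the difference in median nor that in width was tested.

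**Figure D2:**
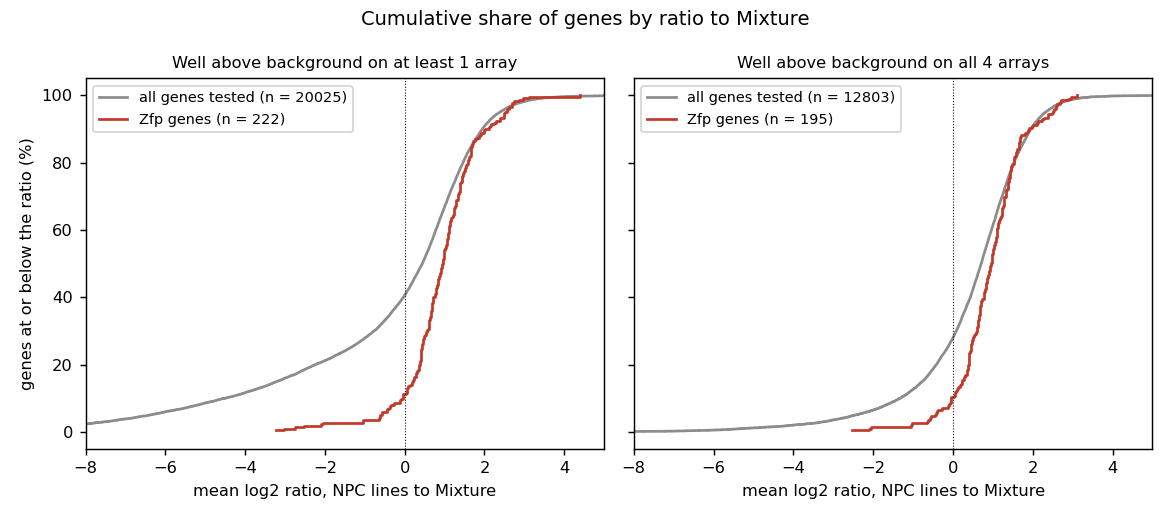
The curves give the percent of genes (y axis) whose mean log2 ratio of the NPC lines to Mixture lies at or below the value on the x axis, for Zfp genes (red) and all genes tested (grey), on the left for genes well above background on at least 1 array and on the right for those so on all 4 arrays. The red curves lack the long lower tail of the grey ones and meet them at the upper end, with medians of 0.96 against 0.44 on the left and 0.97 against 0.71 on the right.

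All 3 lines lay above Mixture for 157 Zfp genes (70.7%, against 42.9% of all genes tested), or 144 of the 195 measured on all arrays (73.8%, against 57.4%). Every line lay below Mixture for 10 (4.5%, against 28.7%), or 8 of the 195 (4.1%, against 17.1%). For the remaining 55 the lines fell on both sides. The study's rule of size set 1.5-fold over Mixture, in NSEB5-2C together with 1 of the other lines. It took in 129 Zfp genes (58.1%), against 35.9% of all genes tested. Of those measured on all arrays it took in 118 of 195 (60.5%), against 49%. At least 1.5-fold below Mixture in every line were 4 Zfp genes (1.8%, against 22.4%), and 2 of the 195 (1.03%, against 9.82%). The 4 were Zfp474, Zfp709, Zfp503 and Zfp536.

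Of the Zfp genes, 3 were called higher and 2 lower than Mixture (limma, Benjamini-Hochberg adjusted p under 0.05 over all 20025 genes), against 0.919% of all genes tested called higher and 8.89% called lower. An unadjusted p under 0.05 was found for 60 above Mixture and 2 below it, against 15.5% and 15.4% of all genes. Those below it, Zfp474 and Zfp709, met the rule through Mixture alone, so they had to differ. In the same fit 54 and 0 of the 195 genes on all 4 arrays were found, against 2638 and 608 of 12803 genes. The 3 higher genes are 1.35% of the 222 and the 2 lower genes 0.901%. Without NS21, without NS195R or without NSEB5-2C limma called 0 Zfp genes and 0 genes in all, with 22, 39 and 28 Zfp genes higher at an unadjusted p under 0.05. Of the calls, those of Zfp334, Zfp474 and Zfp709 concern genes that met the rule through the group where they are high, so they had to differ, and their values are given as a description with no test. Among the 195 genes on all 4 arrays, fitted alone with the other genes of like detection, limma also called 0, where 60 had an unadjusted p under 0.05 and a ratio above 0, and 0 a ratio below 0.

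Zfp609 encodes a chromatin factor that works with the cohesin loader Nipbl and the Integrator complex and guides the migration of cortical neurons. Its level was -2.04 in Mixture, with NS21 at 0.54, NS195R at 0.42 and NSEB5-2C at 0.73. All lines thus lay far above Mixture and close to each other. The mean log2 ratio was 2.60 (6.07-fold, SE 0.36, higher in 3 of 3 lines, limma adjusted p = 0.0433). The other probes for the gene gave 2.13 and 1.21, but neither was well above background in Mixture, so these ratios are not exact. Limma did not call Zfp609 with scaling by the array median or with the mean of probes.

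Zfp146 encodes a protein made almost wholly of zinc fingers, without a KRAB box. Its level was -4.65 in Mixture, with NS21 at -2.30, NS195R at -1.96 and NSEB5-2C at -2.20, so that the lines did not overlap Mixture. The mean log2 ratio was 2.50 (5.64-fold, SE 0.37, higher in 3 of 3 lines, limma adjusted p = 0.0489). The other probes gave 1.83 and 2.00, not exact because neither was well above background in Mixture. Limma did not call Zfp146 with normexp, an intensity trend, scaling by the array median or the mean of probes. Zfp334 was not well above background in Mixture (-7.25), with NS21 at -4.43, NS195R at -4.33 and NSEB5-2C at -4.77. It was at least 1.4-fold higher in the lines. Here and elsewhere "at least" sets the brighter group's mean against the lowest signal well above background, or the gene's own signal where that is higher, on each dim array.

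Zfp474 and Zfp709 were measured in Mixture only. Zfp474, a gene known for its expression in testis, had a level of -3.99 in Mixture and of -7.04, -6.98 and -7.03 in NS21, NS195R and NSEB5-2C. The NPC level was at least 2.22-fold lower. For Zfp709 the level was -3.89 in Mixture and -7.03, -7.14 and -7.18 in the lines in the same order. It was at least 2.39-fold lower. Neither was well above background in any line.

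Among genes measured on all 4 arrays with all lines above Mixture, the 8 with the largest ratios were Zfp286, Zfp184, Zfp248, Zfp462, Zfp566, Zfp609, Zfp239 and Zfp428, all at 2.57 or more. Except for Zfp609 they did not pass limma. Zfp286, a KRAB zinc finger gene, stood at -1.52 in Mixture and at 1.09, 1.72 and 1.94 in NS21, NS195R and NSEB5-2C (8.59-fold, SE 0.52 log2, limma adjusted p = 0.0619), and its other probe gave a log2 ratio of 2.89. Zfp184, also of the KRAB group, stood at -3.81 in Mixture and at -1.37, -1.13 and -0.05 in the lines (2.96, SE 0.71, limma adjusted p = 0.107). Both groups of values stand apart, and in each gene NSEB5-2C is the highest line.

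Zfp462 encodes a large zinc finger protein needed in early development and tied in people to a disorder of brain and body growth. Its level was -1.45 in Mixture, with NS21 at 1.86, NS195R at 1.10 and NSEB5-2C at 0.79 (log2 ratio 2.70, SE 0.60, limma adjusted p = 0.0957). Zfp428 had levels of 2.47 in Mixture and 5.09, 5.38 and 4.65 in NS21, NS195R and NSEB5-2C (2.57, SE 0.47, limma adjusted p = 0.0715). Zfp239, once known as Mok2 and able to bind DNA and RNA, had -2.78 in Mixture and -0.40, -0.75 and 0.53 in the lines (2.58, SE 0.68, limma adjusted p = 0.12). In all of these genes the lowest line lay at least 2.03 above Mixture on the log2 scale.

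The 8 genes of the other end, measured on all arrays and below Mixture in every line, were Zfp503, Zfp536, Zfp113, Zfp99, Zfp39, Zfp524, Zfp651 and Zfp236. None passed limma, with adjusted p between 0.337 and 0.634. Zfp503 (Nolz1) encodes a transcriptional repressor that acts in striatal and motor neuron development. It stood at 1.93 in Mixture, with NS21 at 0.95, NS195R at 0.75 and NSEB5-2C at -3.48. Zfp536, a brain gene that restrains neuronal differentiation, stood at -0.85 in Mixture, with NS21 at -4.65, NS195R at -1.99 and NSEB5-2C at -2.09. A single line holds most of the low mean in each, NSEB5-2C for Zfp503 and NS21 for Zfp536. From Zfp39 to Zfp236 the mean log2 ratios were only -0.63 to -0.28, and those of Zfp236 and Zfp39 were above 0 with quantile normalization. Scaling by the array median adds 0.753 to every log2 ratio, which by itself turns small negative ratios.

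**Figure D3:**
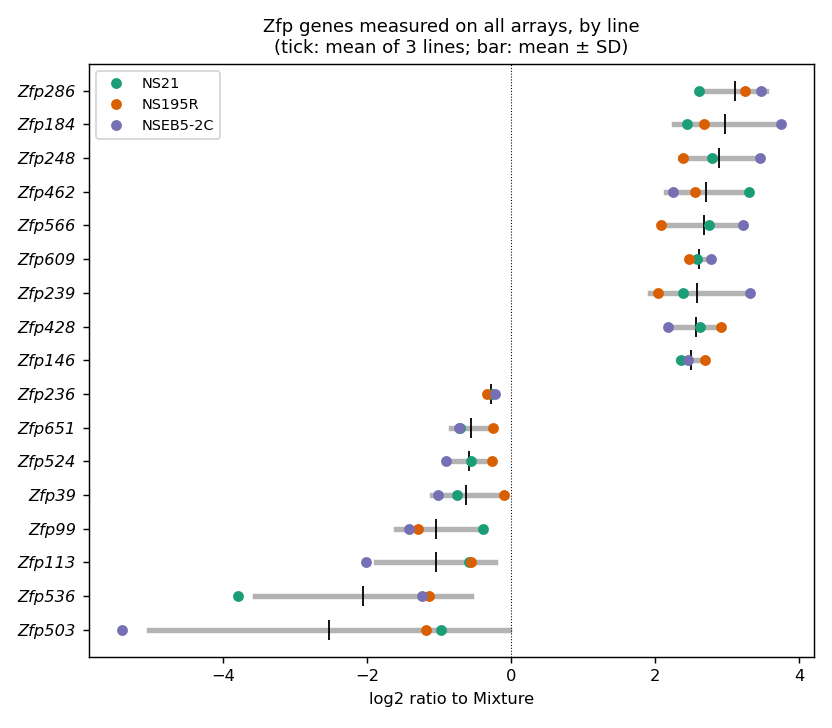
For the 17 named Zfp genes measured on all 4 arrays at either end of the ratios or past limma, points give the log2 ratio to Mixture in NS21, NS195R and NSEB5-2C, the tick their mean and the grey bar the mean ± SD over the 3 lines. The upper 9 genes have all lines at 2.03 or more, while Zfp503 and Zfp536 have 1 line far below the others.

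Of the genes well above background in every line and not in Mixture, the 6 with the largest bounds were Zfp694 (at least 5.01-fold higher), Zfp365 (4.88), Zfp57 (4.79), Zfp260 (3.18), Zfp583 (2.21) and Zfp9 (2.13). These genes too met the rule through the lines alone, and no test is given. Zfp365 encodes a centrosomal protein of neurons and oligodendrocytes. Its level was -7.11 in Mixture, with NS21 at -2.21, NS195R at -1.05 and NSEB5-2C at -4.87. Zfp57, which keeps parental imprints through early development by recruiting Trim28, stood at -5.43 in Mixture, with NS21 at -1.13, NS195R at -4.61 and NSEB5-2C at -2.47. The lines differ widely in both genes. Zfp583 was even across the lines, at -3.89, -3.73 and -3.93 for NS21, NS195R and NSEB5-2C.

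By role, neural regulators were 10 of the genes, with a median log2 ratio of 0.99, close to the 0.96 of all Zfp genes. By limma 0 passed and 1 was higher at an unadjusted p under 0.05 (Zfp462, against 15.5% of all genes tested). The study's rule of size took in 6, against 35.9% of all genes, 49% of those on all 4 arrays and 58.1% of all Zfp genes. Zfp191 (Zfp24), which oligodendrocytes need to make myelin, stood at -0.96 in Mixture and at 0.03, 0.77 and -0.19 in NS21, NS195R and NSEB5-2C. Zfp335, a histone methyltransferase partner needed for cortical size, stood at -0.04 in Mixture and 0.79, 0.79 and 1.28 in the lines. Both lay above Mixture in every line. Zfp521, which drives embryonic stem cells toward a neural fate, stood at 0.49 in Mixture, with NS21 at 0.78, NS195R at 2.54 and NSEB5-2C at 0.45, so that NS195R alone stood out. Zfp238 (Zbtb18), a repressor in cortical neurons, stood at 1.02 in Mixture, with NS21 at -0.56, NS195R at 1.88 and NSEB5-2C at 0.61, on both sides of Mixture.

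Genes tied to pluripotency, the ability of embryonic stem cells to form all tissues, were 6, with a median of 0.69. By limma 0 passed and 1 was higher at an unadjusted p under 0.05 (15.5% of all genes tested). The rule of size took in 4 (35.9% of all genes, 49% of those on all 4 arrays, 58.1% of all Zfp genes). Zfp532, better known as a partner of the chromatin reader Zmynd8, had the largest ratio of them, with levels of -2.25 in Mixture and 0.07, 0.44 and -0.10 in NS21, NS195R and NSEB5-2C (log2 ratio 2.38, SE 0.42, limma adjusted p = 0.067). Zfp281, a partner of the core stem cell factors, stood at 0.86 in Mixture and 2.53, 1.57 and 2.14 in the lines (1.22, SE 0.55, limma adjusted p = 0.242). Zfp217 did not separate, at -2.39 in Mixture and -2.05, -2.51 and -2.48 in the lines.

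The guardians of imprints and silencers of retroelements on the list were represented by Zfp57 and Zfp445 only, of 9 named. Zfp445 stood at -1.53 in Mixture and -0.50, -0.13 and -0.58 in NS21, NS195R and NSEB5-2C (log2 ratio 1.12, SE 0.40, limma adjusted p = 0.176). Genes known from blood, fat, testis or skin were 6 of 8 named, with a median of 1.20. Of these, 4 met the rule of size (35.9% of all genes tested, 49% of those on all 4 arrays, 58.1% of all Zfp genes). By limma 0 passed, and 2 were higher at an unadjusted p under 0.05 (15.5% of all). The testis gene Zfp37 stood at -3.98 in Mixture and -1.92, -2.20 and -1.42 in the lines (2.13, SE 0.49, limma adjusted p = 0.1). Zfp105 stood at -0.83 in Mixture and 1.97, 1.69 and 1.02 in the lines (2.39, SE 0.55, limma adjusted p = 0.102). Both genes lay above Mixture in every line, as 4 of the 6 did (70.7% of all Zfp genes). Zfp467 and Zfp750 had lines on both sides of Mixture. Testis was not in the pool, and whether this bears on the values was not tested.

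Genes that act on RNA, ribosomes or the spindle were 7 of 8 named, each measured on all 4 arrays, with a median of 1.08. All 7 lay above Mixture in every line (42.9% of all genes tested, 57.4% of those on all 4 arrays). The share was 73.8% for Zfp genes on all 4 arrays. By limma 0 passed, and 2 were higher at an unadjusted p under 0.05 (15.5% of all). The rule of size took in 6 (35.9% of all, 49% of those on all 4 arrays, 60.5% of Zfp genes on all 4 arrays). Zfp207 (BuGZ), which aids spindle attachment of chromosomes, stood at 2.41 in Mixture, with log2 ratios to it of 1.73, 1.50 and 1.59 for NS21, NS195R and NSEB5-2C (mean 1.61, SE 0.35, limma adjusted p = 0.0944). Zfp326, which joins transcription with splicing, stood at 0.03 in Mixture and 2.24, 2.32 and 1.55 in the lines (2.01, SE 0.51, limma adjusted p = 0.112). Zfp598, a sensor of collided ribosomes, stood at 1.78 in Mixture and 3.05, 2.58 and 3.35 in the lines. The lines did not overlap Mixture in these genes. Zfp106 was the exception in size, at 0.28, and its ratio was -0.01 with quantile normalization.

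A list of the corepressors that KRAB zinc fingers recruit, with broader histone and DNA methylation and chromatin genes, also lay mostly above Mixture. Of 34 listed genes 32 were tested, with a median log2 ratio of 1.37. The median was 0.44 for all genes tested and 0.71 for those on all 4 arrays. Limma called 2 higher and 0 lower (0.919% and 8.89% of all genes tested). At an unadjusted p under 0.05, 14 were higher (15.5% of all). Above Mixture in every line were 26 (42.9% of all, 57.4% of those on all 4 arrays). Setdb1, the methyltransferase of lysine 9 of histone H3, stood at -1.92 in Mixture and 0.48, 0.62 and 0.50 in NS21, NS195R and NSEB5-2C (2.46, SE 0.34, higher in 3 of 3 lines, limma adjusted p = 0.0432). Cbx5 (HP1 alpha), which binds that mark, stood at 0.07 in Mixture and 2.84, 2.57 and 2.46 in the lines (2.55, SE 0.38, higher in 3 of 3 lines, limma adjusted p = 0.0487). Trim28 itself stood at 2.47 in Mixture and 4.95, 4.23 and 4.50 in the lines (2.09, SE 0.47, limma adjusted p = 0.0974). When any 1 line was left out, or when the fit was limited to genes on all 4 arrays, limma called 0 of the listed genes.

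The family most alike on the array, the Zbtb genes, pairs zinc fingers with a BTB domain in place of a KRAB box. Of 24 tested, the median log2 ratio was 0.81 and 11 met the rule of size (45.8%). On all 4 arrays 20 of them had a median of 0.81 with 10 in the rule, against 0.97 and 60.5% for the Zfp genes. The difference was not tested. Genes named Zscan or Zkscan with a number were only 2 (median 0.31). Others of each kind stand among the Zfp genes under old names, such as Zfp161 (now Zbtb14), Zfp306 (Zkscan3) and Zfp96 (Zscan12). The comparison thus follows the names on the array and does not separate protein families.

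The spread between the NPC lines was smaller for Zfp genes than for all genes, a difference that was not tested. The median SD over the 3 lines was 0.37 (log2) for the Zfp genes and 0.56 for all genes tested, and 0.35 against 0.44 on all 4 arrays. At least 2-fold from both other lines in some line were 45 Zfp genes (20.3%, against 41% of all genes tested), and 30 of the 195 on all 4 arrays (15.4%, against 27.8%). NS21 had 9 above (4.05%) and 3 below (1.35%), against 8.92% and 5.86% of all genes. For NS195R the counts were 11 above and 11 below (4.95% each), against 12.6% and 7.37%. In NSEB5-2C there were 3 above (1.35%) and 23 below (10.4%), against 6.95% and 9.4%. Limma of each line against the others called 0 Zfp genes and 0 genes in all, with 2, 8 and 6 Zfp genes at an unadjusted p under 0.05 in NS21, NS195R and NSEB5-2C, against 5.74%, 10.5% and 5.85% of all genes. Of the 8 in NS195R, Zfp641, Zfp697 and Zfp711 met the rule through that line alone, so they had to differ. Zfp125, Zfp750, Zfp423, Zfp40 and Zfp78, also counted here, were not well above background in some line. The counts at an unadjusted p are thus a description and not a test. NS195R also differs from the other lines in strain. Each line has 1 array, so the folds below are sizes with no replicate check.

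Low in NSEB5-2C was Zfp423, a regulator of cerebellar precursors and of fat cell precursors. Its level was -3.10 in Mixture, -1.23 in NS21, -0.64 in NS195R and -6.36, not well above background, in NSEB5-2C, at least 19.1-fold below the mean of the other lines. Zfp503 was 20.1-fold below it in the same line, and Zfp365 9.43-fold. Zfp40 was not well above background there (-7.36) and stood at -4.47 in Mixture, -4.08 in NS21 and -3.01 in NS195R, at least 3.13-fold apart. Higher in NSEB5-2C were Zfp367, 2.28-fold above the nearest line, Zfp184, 2.1-fold above it, and Zfp296, 2.04-fold above it.

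Zfp296, a stem cell gene that also acts on heterochromatin, stood at -1.16 in Mixture, with NS21 at -0.48, NS195R at -4.73 and NSEB5-2C at 0.55, so that NS195R lay 27.2-fold below the mean of the other lines. Zfp7 stood at -0.80 in Mixture, with NS21 at 1.87, NS195R at -0.85 and NSEB5-2C at 1.56, with NS195R 5.9-fold below. In both, NS195R was far below the other lines. High in NS195R was Zfp697, at -1.95, while Mixture (-5.47), NS21 (-5.79) and NSEB5-2C (-6.92) were not well above background, and NS195R lay at least 8.98-fold above the mean of the other lines. Zfp697 met the rule through NS195R alone, so no test is given. NS195R also held the highest Zfp521, 3.79-fold above the mean of the other lines. Of 6 markers of the oligodendrocyte lineage 5 were well above background in NS195R, 3 in NS21, 1 in NSEB5-2C and 5 in Mixture. The log2 of their summed signals, which the brightest markers dominate, was 6.23, 1.03, 0.45 and 2.11 in that order. Among the lines Olig1 (level 5.73) and Olig2 (4.42) were so in NS195R alone, while Mbp was not so there (-5.52) and stood at 0.88 in NS21 and 0.36 in NSEB5-2C. Whether the cell type markers bear on the Zfp genes was not tested.

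NS21 held the highest Zfp750, a gene of skin differentiation, and stood at -2.03 in Mixture, with NS21 at -1.74, NS195R at -5.82 and NSEB5-2C at -6.80, the latter pair not well above background. NS21 thus lay at least 10.9-fold above the mean of the other lines and near Mixture. The stem cell gene Zfp206 (Zscan10) stood at -4.07 in Mixture, -2.16 in NS21, -5.27 (not well above background) in NS195R and -3.91 in NSEB5-2C, and NS21 was 3.36-fold above NSEB5-2C, the nearest line. Of 6 pluripotent cell markers 2 were measured, Pou5f1 and Esrrb, and NS21 was the only line with either well above background. Their part in the Zfp206 value was not tested. Zfp185, an actin-binding LIM protein gene on the X chromosome, stood at -0.34 in Mixture, with NS21 at -0.27, NS195R at -4.63 and NSEB5-2C at -2.45. Lowest in NS21 was Zfp536, 6.08-fold below the mean of the other lines.

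**Figure D4:**
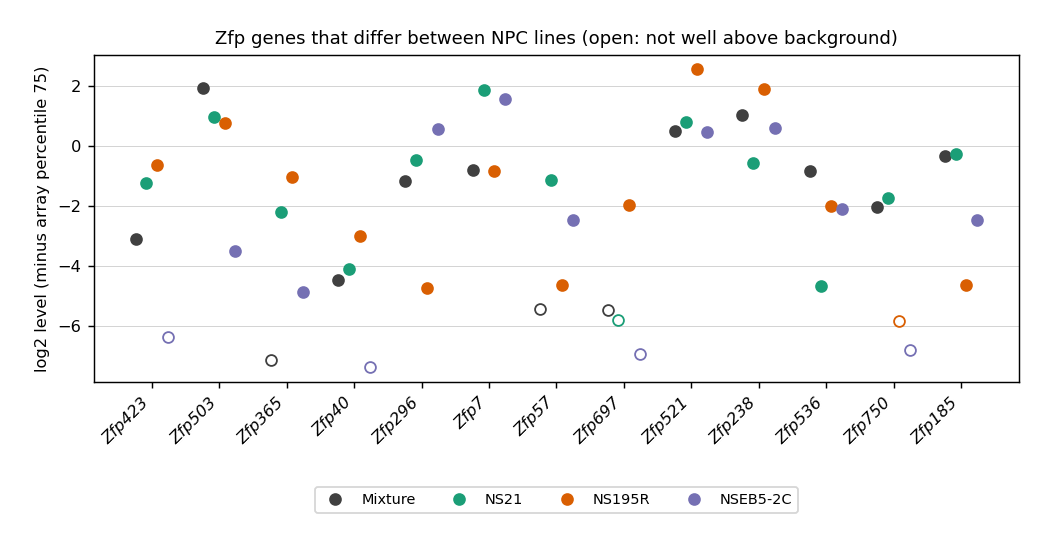
For 13 Zfp genes that differ between NPC lines, points give the log2 level relative to the percentile 75 of the array in Mixture, NS21, NS195R and NSEB5-2C, 1 array each, and open points were not well above background. Zfp423, Zfp503, Zfp365 and Zfp40 are lowest among the lines in NSEB5-2C, Zfp296, Zfp7, Zfp57 and Zfp185 in NS195R, and Zfp238 and Zfp536 in NS21, and levels compare samples within a gene only.

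Position in the genome was shared by many of the genes. Of 222, 54 (24.3%) lie on chromosome 7, which holds 7.35% of all genes tested, and 19 lie on chromosome 17. Runs of 2 or more of these genes next to each other in the gene order numbered 28 and held 72 genes, of which 10 runs with 30 genes are on chromosome 7. Genes in runs had a median log2 ratio of 0.98 and the 149 others 0.93, or 0.93 and 0.92 with dim values raised to the lowest signal that the array measured. The longest run, of 5 (Zfp180, Zfp112, Zfp235, Zfp114 and Zfp111), had ratios from 0.07 (Zfp112) to 1.44 (Zfp111) in the genes measured on all arrays, and Zfp114 was at least 1.6-fold higher. In the run of Zfp14, Zfp82, Zfp566 and Zfp260 the ratios were 1.10, 2.23 and 2.68 and Zfp260 was at least 3.18-fold higher, while Zfp692 (2.48) and its neighbour Zfp672 (-0.64) pointed opposite ways. Over 33 neighbouring pairs on all 4 arrays the median difference between neighbours was 0.62 (log2) and their ratios correlated at Pearson 0.09, as a description of pairs that share arrays. Over 6869 neighbouring pairs of all genes the difference was 1.12 and the correlation 0.09.

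**Figure D5:**
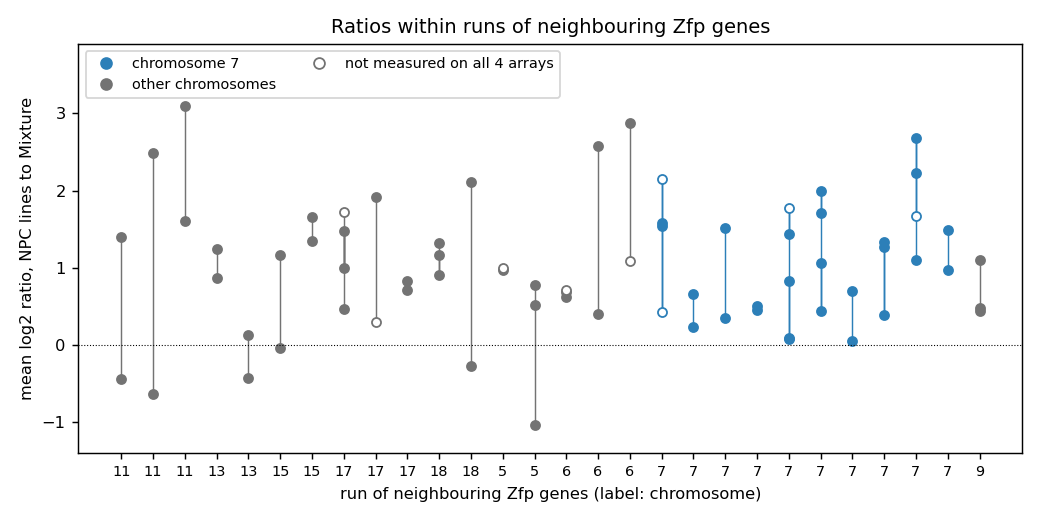
Each column is 1 of the 28 runs of neighbouring Zfp genes, labelled by chromosome, and each point the mean log2 ratio of a gene's NPC lines to Mixture, with chromosome 7 in blue and genes not well above background on all 4 arrays as open points, whose place is not exact. Ratios within a run range from nearly equal, as in Zfp324 and Zfp446 on chromosome 7 (0.45 and 0.50), to 3.12 apart in the run of Zfp692 and Zfp672 on chromosome 11.

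The promoters of the genes were read to see what they share apart from their name. RefSeq promoters of build GRCm38.p6, from 250 bases before to 50 after the first listed start, were at hand for 175 of the genes and 12296 protein-coding genes tested. Zfp promoters had a median GC content of 58.3% and 17 CpG sites, against 59.7% and 19 in all. The motif ACTACAATT, part of the site of ZNF143, the human form of the Zfp143 protein, was in 7 Zfp promoters (4%), against 0.691% of all. Of these 7, Zfp180, Zfp111, Zfp108 and Zfp93 lie near each other on chromosome 7. The share thus does not rest on 7 independent promoters. Both strands were searched, and the motifs were chosen with these data in view. CCGGAAG of the ETS factors was in 25.1% against 15.2%, GCATGCGC of NRF1 in 6.86% against 4.61%, GGGCGG of SP factors in 49.7% against 58.8% and TATAAA in 6.86% against 9.48%. TGACGTCA, the cyclic AMP response element, was in 4% against 2.88%, CTCGCGAG of ZBTB33 in 1.71% against 1.68% and AAGATGGCG of YY1 in 4% against 2.65%. None of these strings contains another. A match is a stretch of letters and not a bound site.

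The 250 bases before the start of 4 of the 7 promoters with the ZNF143 motif, and of Zfp334, which holds the NRF1 motif, show the stretches in question, 5′ to 3′ on the strand of the gene. Capitals mark ACTACAATT or its reverse complement in the first 4, and GCATGCGC, found on both strands with an overlap, in Zfp334. Zfp108 is at chr7:24254544-24254793 (+), Zfp93 at chr7:24270168-24270417 (+), Zfp180 at chr7:24081647-24081896 (+), Zfp692 at chr11:58306819-58307068 (+) and Zfp334 at chr2:165388260-165388509 (-).
Zfp108: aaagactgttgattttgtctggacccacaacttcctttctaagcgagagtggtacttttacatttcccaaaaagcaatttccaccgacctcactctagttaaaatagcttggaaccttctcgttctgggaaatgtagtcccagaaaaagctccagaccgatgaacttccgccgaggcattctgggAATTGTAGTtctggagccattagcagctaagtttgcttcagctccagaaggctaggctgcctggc
Zfp93: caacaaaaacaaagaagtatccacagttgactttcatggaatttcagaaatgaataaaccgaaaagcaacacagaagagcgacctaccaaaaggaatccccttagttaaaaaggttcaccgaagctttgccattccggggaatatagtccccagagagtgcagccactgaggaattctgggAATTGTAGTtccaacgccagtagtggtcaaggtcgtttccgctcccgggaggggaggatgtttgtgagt
Zfp180: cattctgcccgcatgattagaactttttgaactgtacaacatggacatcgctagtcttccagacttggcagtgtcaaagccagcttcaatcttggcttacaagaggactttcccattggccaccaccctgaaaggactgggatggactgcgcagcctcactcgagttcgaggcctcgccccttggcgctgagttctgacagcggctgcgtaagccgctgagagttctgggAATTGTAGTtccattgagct
Zfp692: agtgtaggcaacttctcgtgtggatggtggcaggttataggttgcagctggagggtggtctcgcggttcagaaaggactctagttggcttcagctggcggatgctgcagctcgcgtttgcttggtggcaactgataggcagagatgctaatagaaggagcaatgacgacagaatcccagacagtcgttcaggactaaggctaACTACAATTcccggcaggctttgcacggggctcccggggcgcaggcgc
Zfp334: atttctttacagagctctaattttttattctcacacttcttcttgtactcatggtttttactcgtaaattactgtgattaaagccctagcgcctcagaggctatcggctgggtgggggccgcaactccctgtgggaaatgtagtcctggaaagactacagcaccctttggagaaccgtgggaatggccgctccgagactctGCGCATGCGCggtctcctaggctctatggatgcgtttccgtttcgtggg
Counted along the gene's strand, the first capital lies at -65 from the start in Zfp108, -69 in Zfp93, -20 in Zfp180, -48 in Zfp692 and -49 in Zfp334. It lies on the opposite strand in Zfp108, Zfp93 and Zfp180, which are near each other on chromosome 7, and on the strand of the gene in Zfp692.

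Genes with the ZNF143 motif did not share a ratio, with 2.48 for Zfp692, 1.44 for Zfp111, 1.06 for Zfp108, 0.82 for Zfp180, 0.44 for Zfp93, 0.30 for Zfp1 and -0.45 for Zfp454. Zfp143 itself stood at -1.42 in Mixture and -0.32, -0.63 and -0.02 in NS21, NS195R and NSEB5-2C (log2 ratio 1.09, SE 0.44, limma adjusted p = 0.205). Of the 12 genes with the NRF1 motif, those measured on all arrays had ratios from 0.34 (Zfp690) to 2.57 (Zfp428), with Zfp82 at 2.23. Zfp334 and Zfp694, not well above background in Mixture, were at least 1.4-fold and 5.01-fold higher. By CpG content, 55 genes with fewer than 0.6 of the CpG sites that base composition gives had a median ratio of 1.06 and the 120 others 0.94.

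Several genes were read by more than 1 probe. For 107 genes another probe was well above background on at least 1 array, 160 probes in all. Of these, 142 lay above Mixture, with a median log2 ratio of 1.13, and 142 had the sign of the kept probe. Many of them, such as a Zfp60 probe at 3.16, were well above background in the lines and not in Mixture. Those met the filter through the lines alone, so the counts and the median are a description and not a check. Zfp106, Zfp318, Zfp384 and Zfp533 had a probe at least 1.5-fold above Mixture and another at least 1.5-fold below it. For Zfp384 the kept probe gave 1.22 and the others 1.19 and -1.06, and for Zfp106 the 4 probes ran from -0.66 to 1.38, all measured on all arrays. For Zfp318 and Zfp533 some of the probes were dim, so that their ratios are not exact. What these probes read apart (transcripts, ends or other genes) was not tested.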

How the data were processed

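Total RNA (0.25 ug, Cy3) of 4 samples was hybridised to 1-colour Agilent arrays on 1 slide, read in 1 scan. Per the file headers, the authors' spot intensity values came from Agilent Feature Extraction 9.5.3.1, which subtracted a spatial background surface and set the quality flags. The authors' deposited value table equals that processed intensity (45018 of 45018 features), on a linear scale without centring. Here the log2 of the processed signal minus the percentile 75 of each array's 43379 non-control spots was used. Outlier spots were left out, 245 repeated probes were averaged and 19 of 41174 probes had no value on every array. Columns of other samples numbered 0.

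NPC lines and Mixture, and each line and the others, were compared over 20025 genes by limma 3.58.1 (two-sided, lmFit, then eBayes, R 4.3.3). The comparison with Mixture had 2 residual degrees of freedom and a prior of 1.33, and that of each line had fewer residual degrees. The single Mixture array is assumed to vary like the lines. The fit was tested on simulated data. Alternatives were normexp (offset 50), quantile and median scaling, filters on dim probes, the mean of probes, an intensity trend, dim values raised to the array's detection floor (its lowest well-measured signal), and leaving out each line. NPC replicates 1, 2 and 3 are NS21, NS195R and NSEB5-2C. The members, lists, motifs and motif lengths were chosen with earlier results of these data known.

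Named genes were those past limma, the 8 highest and 8 lowest measured on all arrays with 1 sign in all lines, up to 6 with the largest bounds, up to 4 per line and direction, role list members and those at the threshold. Symbols came from RefSeq (177 by transcript, 2 by listed transcript, 34 by symbol, 8 by synonym). The sources used here do not give the probe build. Protein features were not analysed here.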

Additional observations from a re-analysis of the deposited data

Results flagged for a closer look

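In 3 Zfp genes 1 NPC line lay at least 2-fold above Mixture and another at least 2-fold below it, after dim values were set to each array's lowest well-measured signal. The highest and lowest line of Zfp296 were 5.28 apart on the log2 scale, NSEB5-2C at 1.70 and NS195R at -3.58. For Zfp423 the gap was 4.55, with NS195R at 2.46 and NSEB5-2C at -2.09, and for Zfp206 it was 3.03, with NS21 at 1.91 and NS195R at -1.11. With 1 array per line, these gaps between the highest and the lowest line were not tested.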

How the results depend on the processing

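The direction of the median held under every alternative, and the calls did not. With normexp 12 Zfp genes were called higher and 0 lower (4.81% and 9.86% of all genes tested), with quantile normalization 11 higher (2.94% of all), with median scaling 0 lower (6.43%), among genes on all 4 arrays 0 and 0 (0% of all), with no filter 6 higher (1.84%), and with dim values raised 7 higher and 0 lower (2.46% and 10.4%). Of the 5 calls, Zfp609 alone remained with normexp and Zfp334 alone with median scaling. All 5 remained with quantile normalization and with no filter, and 0 on all 4 arrays. The mean of probes kept Zfp334, Zfp474 and Zfp709, a trend kept Zfp474, Zfp609 and Zfp709, and dim values raised kept Zfp146 and Zfp609. Without any 1 line the calls were 0 to 0 in each direction, and corepressor calls 0 to 0. Corepressor calls numbered 4 with normexp, 1 with median scaling and 0 on all 4 arrays.

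The median of the Zfp genes was 0.58 with normexp, 1.19 with quantile normalization and 1.71 with median scaling. For genes in runs it was 0.52, 1.29 and 1.73, and for Zbtb genes 0.43, 1.21 and 1.57, with 0.74 to 1.12 without a line. Median scaling gave corepressors 2.12. The gap to all genes tested was 0.26 on all 4 arrays and 0.89 with no filter. Zfp genes at least 1.5-fold below Mixture in every line numbered 2 with normexp, with median scaling and on all 4 arrays, and 4 to 7 without a line.

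Genes at least 2-fold from both other lines numbered 13 with normexp, with NS21 at 2 above and 0 below, NS195R at 3 above and 3 below, and NSEB5-2C at 1 above and 5 below. With quantile normalization 14 were below in NSEB5-2C. Median scaling gave 5 above and 17 below in NS195R, and 5 and 11 in NSEB5-2C. On all 4 arrays 3 were above in NS21, and 6 above and 7 below in NS195R.

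The ratios of some genes changed sign. These were, with normexp, Zfp296 (0.22), Zfp40 (0.16) and Zfp641 (0.14), and with quantile normalization Zfp106 (-0.012), Zfp236 (0.32), Zfp39 (0.054), Zfp40 (0.41) and Zfp641 (0.15). Median scaling adds 0.753 to every log2 ratio, so that small negative ratios turn by construction, here Zfp236 (0.47), Zfp238 (0.37), Zfp296 (0.35), Zfp39 (0.13), Zfp40 (0.41), Zfp524 (0.18), Zfp641 (0.13) and Zfp651 (0.19). The mean of probes gave Zfp318 -0.38, and dim values raised gave Zfp40 0.38 and Zfp641 0.43. Without 1 line the ratio ran from -0.52 to 1.04 for Zfp206, -0.10 to 0.13 for Zfp217, -0.996 to 0.22 for Zfp238, -1.45 to 1.19 for Zfp296, -0.081 to 0.96 for Zfp367, -1.25 to 0.93 for Zfp40, -0.69 to 2.16 for Zfp423, -1.77 to 0.18 for Zfp641, -0.89 to 1.60 for Zfp697 and -0.15 to 1.25 for Zfp711. The cause was not tested.

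No paired analysis was possible because Mixture has 1 array, so the groups share fewer than 2 replicate numbers. Signal over background limits the genes measured on 1 to 3 arrays, whose fitted ratios are not exact, and the number of arrays limits every comparison.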
